A study of Mus musculus with 6 samples.

Results

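Connexins and aquaporins are membrane channel genes of the lens, and they were followed here by symbol: Gja1 and Gja3 among connexins, Mip, Aqp1 and Aqp5 among aquaporins, and Lim2, which encodes a membrane protein of fiber cells. Of these 6 symbols, 5 were matched to an Ensembl identifier in the count files, which list 56940 genes in all. Lim2 was not matched and was not analysed here. All 5 matched genes had enough counts to be tested, and they met the count minimum in both groups.

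RNA was sequenced from mouse lens capsules with the lens epithelial cells that cling to them, from animals labelled C57BL/6 and wildtype, after the fiber cell mass had been taken out as in cataract surgery. There were 3 libraries from capsules collected at 0 h and 3 from capsules collected 72 h after the operation, and every library pooled 5 capsules. The first eye of a mouse gave a 72 h capsule and the second a 0 h capsule, so both times share animals, surgery and strain, and all sample names carry the unexplained tag RUNX_Cre_N. The sources used here give no age or sex of the animals, and the p-values measure the spread between pools.

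Gap junctions are built of connexins: hexamers in neighbouring membranes dock and let ions and small molecules pass from cell to cell. The lens has no blood vessels, and its fiber cells depend on this coupling and on water channels for supply and clarity. By textbook knowledge the epithelium makes Cx43, encoded by Gja1, while fiber cells make Cx46, encoded by Gja3. Mip encodes AQP0, the main membrane protein of fiber cells, which conducts water and helps fibers adhere. Aqp1 is known as the water channel of the epithelium, and Aqp5 is found in both cell types.

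Counts in genes ran from 8453450 to 12432688 per library. Levels are in CPM, counts scaled to the TMM-adjusted library size. Lens fiber markers were present at 0 h, where their 11 genes summed to 19750 to 24024 CPM, and all 11 were lower at 72 h, at 1067 to 2632 CPM. Of all tested genes 17.5% were called lower. Dnase2b and Birc7 had 0 counts in every 72 h library, passed the count minimum through 0 h alone and so could only fall. Lens epithelial markers were present in every library, with a sum of 2076 to 2163 CPM at 0 h and 1106 to 1295 CPM at 72 h. Of the 7 epithelial markers, all tested, 5 were called lower and none higher (median log2 change -1.56). The 5 were Foxe3, Cdh1, Pitx3, Mab21l1 and Pdgfra, with log2 changes from -2.10 to -1.37. Pax6 and Six3 were not called. Pax6 had the largest mean level of the 7 before and after, 684 ± 23.0 and 643 ± 91.5 CPM, and so dominated the later sum. In bulk RNA, fewer cells of a type and less RNA per cell cannot be told apart. The 72 h replicate 3 library stood apart by most listed keratins: Krt5 was at 1107 CPM there and at 0.695 and 17.3 CPM in 72 h replicates 1 and 2. Krt4, Krt13, Krt14, Krt15 and Krt19 were also highest there. The corneal keratin gene Krt12 was not, with 8, 8 and 0 counts in 72 h replicates 1 to 3. Mitochondrially encoded genes took 3.75% to 3.91% of counts at 0 h and 16.6% to 25.3% at 72 h.

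All 5 genes were lower at 72 h. Over all 15407 tested genes, 17.5% were called lower and 21.0% higher by edgeR's quasi-likelihood test at an adjusted p under 0.05, and the median log2 change was -0.02. No library of one group reached into the range of the other for any of the 5, a separation seen for 53.5% of all tested genes. The size of the fall differed from gene to gene, from about 1.55-fold for Gja1 to about 11.3-fold for Mip. With crystallin and mitochondrially encoded genes left out of the fit, all 5 were still called lower.

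**Figure D1:**
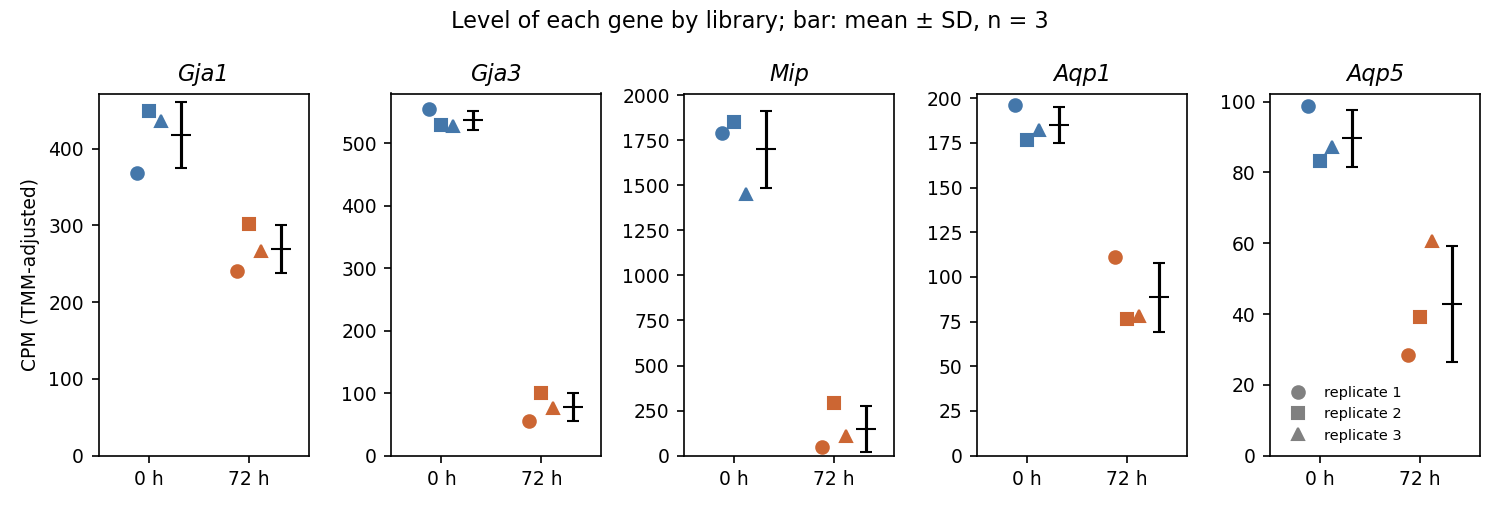
Level of each gene in every library, in CPM on a linear axis from 0. Blue points are 0 h libraries, orange points 72 h libraries, the marker shape gives the replicate number, and the black bar is the mean ± SD (n = 3). The 72 h points lie below all 0 h points in every panel.

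Among connexins, Gja1 stood at 369, 449 and 436 CPM in 0 h replicates 1 to 3 and at 240, 302 and 267 CPM in 72 h replicates 1 to 3. The 3 libraries at 72 h lay close together, and the highest of them was below the lowest at 0 h. The log2 change was -0.63 ± 0.12 (SE), from 418 ± 43.0 to 270 ± 31.2 CPM (SD, n = 3), with an adjusted p of 0.0023 in edgeR's quasi-likelihood test. This was the smallest fall among the 5 genes.

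Gja3, the fiber cell connexin gene, was at 555, 529 and 527 CPM in the 0 h libraries and at 55.5, 100.04 and 76.4 CPM in the 72 h libraries. Its 0 h values were the most even of the 5 genes, with a coefficient of variation of 2.87%. The log2 change was -2.80 ± 0.19, from 537 ± 15.4 to 77.3 ± 22.3 CPM, a 6.94-fold fall (edgeR adjusted p = 8.3e-06). A mean of 14.4% ± 4.15 of the 0 h level (SD, n = 3) was left.

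The balance of both connexins was also compared within libraries, a measure that does not depend on scaling between libraries. Per kilobase of the principal annotated transcript, Gja3 was 1.73, 1.36 and 1.39 times the level of Gja1 at 0 h and 0.266, 0.381 and 0.330 times at 72 h. Gja3 was above Gja1 in every 0 h library and below it in every 72 h library. The log2 ratio moved by -2.20, and the exact two-sided permutation test gave p = 0.1, the smallest value that 3 against 3 libraries allow. The order of the pair depends on the transcript taken as the length of Gja1, since all its annotated exons span 10.3 kb and its principal transcript 3.18 kb. With the length of all exons Gja3 stood above Gja1 on average at 0 h and near it at 72 h, and the change in the log2 ratio is the same by construction.

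Of the 3 listed aquaporins, Mip had the largest fall and the widest relative spread at 72 h. It was at 1790, 1853 and 1454 CPM in the 0 h libraries and at 46.8, 292 and 111 CPM in the 72 h libraries. The 72 h values spread over 6.25-fold, with replicate 2 highest and replicate 1 lowest, yet the highest lay far below the lowest at 0 h. The log2 change was -3.50 ± 0.78, from 1699 ± 215 to 150.1 ± 127 CPM (SD, n = 3), with an adjusted p of 0.027 in edgeR's quasi-likelihood test.

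The call of Mip rested on every 0 h library and on 72 h replicate 3. Its edgeR adjusted p was 0.0801, 0.0776 and 0.0717 without 0 h replicate 1, 2 or 3, and 0.0933 without 72 h replicate 3. The falls without them were 11.1-fold, 10.9-fold, 12.2-fold and 9.96-fold. Without 72 h replicate 2 the fall was 21.6-fold instead of 11.3-fold (edgeR adjusted p = 0.0044).

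The fiber markers differed in how they spread over the 72 h libraries. Of the 11, 6 had the order of Mip, with replicate 2 highest and replicate 1 lowest, 3 had another order and 2 were at 0 counts in all of them. Cryba1, a beta crystallin gene given here because its pattern was the nearest to that of Mip, kept 2.82%, 13.1% and 5.29% of its 0 h mean in 72 h replicates 1, 2 and 3, and Mip kept 2.75%, 17.2% and 6.55%. Bfsp1, which encodes the fiber cell filament protein filensin, had the same order in a far narrower range, at 2.47%, 3.33% and 2.79%. Lgsn, which encodes the lens protein lengsin, was highest in replicate 1, at 146, 75.7 and 72.9 CPM. The part that remaining fiber cells had in the 72 h level of Mip was not tested.

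**Figure D2:**
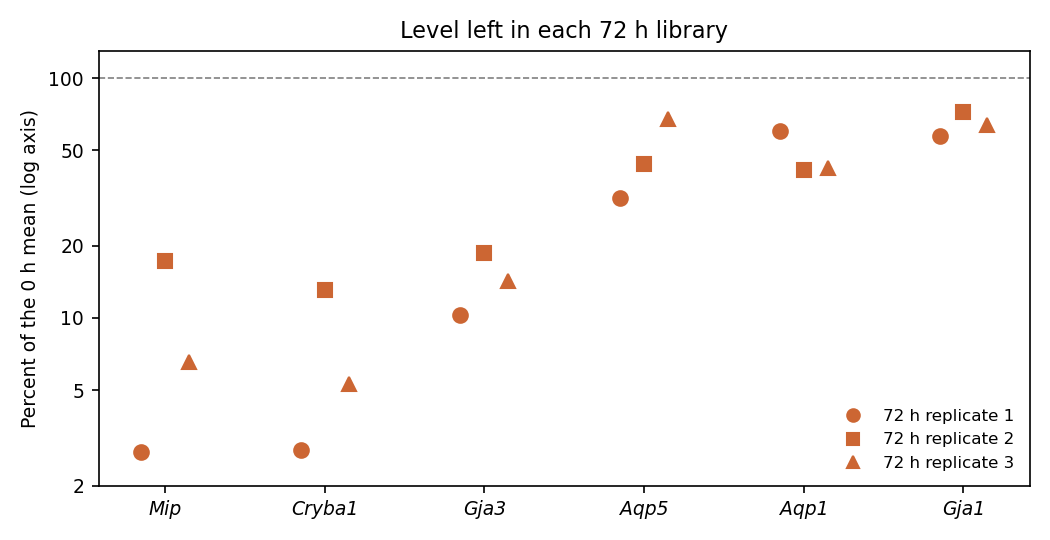
Level in each 72 h library as a percent of the gene's 0 h mean, on a log axis; marker shapes give the replicate and the dashed line is 100%. Mip and Cryba1 range from about 2.75% and 2.82% in replicate 1 to 17.2% and 13.1% in replicate 2, whereas Gja1 stays between 57.5% and 72.4%.

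Aqp1, the water channel gene of the epithelium, was at 196, 177 and 182 CPM at 0 h and at 111, 76.6 and 78.3 CPM at 72 h. Replicate 1 was the highest library at 72 h, the opposite of its place for Mip. The log2 change was -1.06 ± 0.15, from 185 ± 10.2 to 88.6 ± 19.4 CPM (edgeR adjusted p = 3.7e-04). Aqp1 is also made by endothelial, red blood and ciliary cells. The 10 vascular endothelial markers summed to 8.76 to 20.4 CPM at 0 h and 10.3 to 30.3 CPM at 72 h, and 1 of 4 tested members (Erg) was called, higher. Erg, with 0, 1 and 0 counts at 0 h, met the count minimum only at 72 h and so could only rise. The 8 matched erythroid markers summed to 1.95 to 22.6 CPM and 0.734 to 6.37 CPM, with none of 3 tested members called. The 8 markers of iris, ciliary pigment and ciliary epithelium summed to 283 to 394 CPM at 0 h and to 238, 424 and 40.7 CPM in the 72 h libraries, with 2 of 7 tested members lower. Their part in the level of Aqp1 was not tested. Among all tested genes 21.0% were called higher and 17.5% lower.

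Aqp5, a water channel gene of the lens, of glands and of corneal epithelium, was at 98.7, 83.1 and 87.1 CPM at 0 h. In the 72 h libraries it was at 28.5, 39.2 and 60.7 CPM, with replicate 3 the highest. The log2 change was -1.07 ± 0.24, from 89.6 ± 8.08 to 42.8 ± 16.4 CPM (edgeR adjusted p = 0.0083). The same replicate 3 held the keratin counts given above. Leaving out this highest 72 h library makes the fall larger by construction, and it was then -1.39 on the log2 scale (edgeR adjusted p = 5.0e-06). The part of surface epithelial cells in the level of Aqp5 was not tested.

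Mip was the leading aquaporin transcript in every 0 h library but in only 1 of the 72 h libraries. Per kilobase it made up 84.3%, 86.1% and 82.2% of all aquaporin CPM at 0 h, and 23.3%, 64.2% and 19.2% at 72 h. The mean difference was -48.7 percentage points (exact two-sided permutation p = 0.1, the smallest possible), and it was -40.5 without 72 h replicate 3. Aqp1 made up 6.70% to 8.40% at 0 h and 45.1%, 13.7% and 11.0% at 72 h. Aqp5 made up 4.61% to 5.87% at 0 h and 16.9%, 10.3% and 12.5% at 72 h, while its own level fell. In 72 h replicate 3 another aquaporin, Aqp3, held 51.0% (exact permutation p = 0.4 for the shares of Aqp3).

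**Figure D3:**
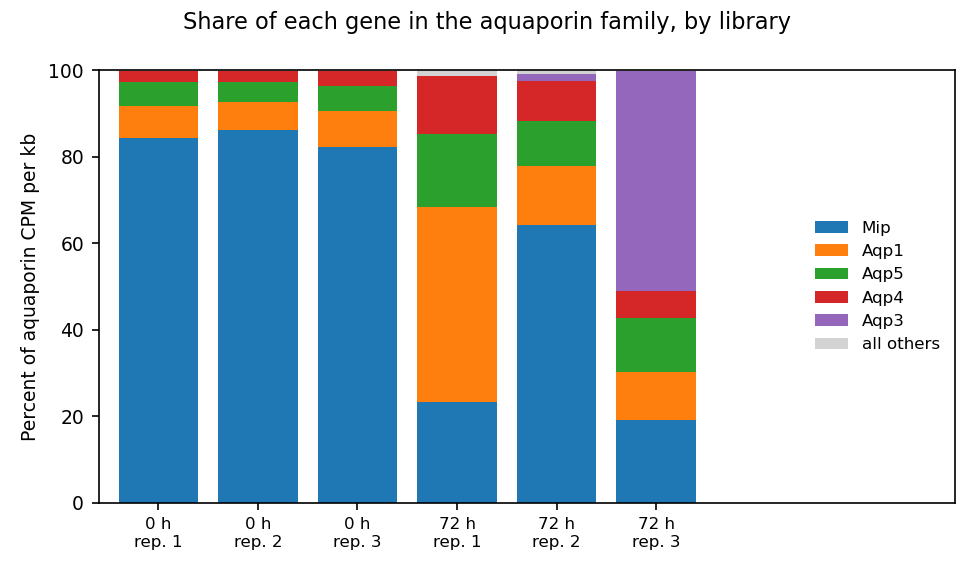
Share of each gene in the summed CPM per kilobase of all aquaporins, one bar per library from 0 to 100%. Mip fills 82.2% to 86.1% of the 0 h bars, and at 72 h Aqp1 fills 45.1% of the bar of replicate 1 and Aqp3 51.0% of that of replicate 3.

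By level per kilobase at 0 h the order was Mip (793 ± 100.2), Gja3 (194 ± 5.58), Gja1 (131 ± 13.5), Aqp1 (70.4 ± 3.87) and Aqp5 (49.9 ± 4.50 CPM per kb), and no neighbours overlapped. With the length of all exons in place of the principal transcript, Gja1 came after Aqp1 and overlapped with Aqp5. At 72 h the order was Gja1 (84.8 ± 9.80), Mip (70.0 ± 59.4), Aqp1 (33.7 ± 7.39), Gja3 (27.9 ± 8.07) and Aqp5 (23.8 ± 9.12 CPM per kb). Every pair of neighbours at 72 h had overlapping libraries, so this later order is not resolved by 3 pools. With the length of all exons Mip led at 72 h, and Gja1 came after Mip and Aqp1.

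Whether the genes fell by different amounts was compared within libraries for all 10 pairs of the 5 genes, as the change of their log2 count ratio. The groups did not overlap for 6 pairs, each with an exact permutation p of 0.1, the smallest possible, and 0.167 after adjustment over the 10 pairs. These 6 set Mip or Gja3 against Gja1, Aqp1 or Aqp5. The fall of Mip was 6.94-fold larger than that of Aqp1, and the fall of Gja3 was 3.38-fold larger. The pair of Aqp1 and Aqp5 moved by 0.05 on the log2 scale (exact p = 1), with log2 ratios at 72 h that ranged from 0.37 to 1.96. The pair of Gja3 and Mip moved by 1.04 and overlapped (exact p = 0.2). With 3 libraries a group these values do not show that such a pair fell alike.

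The promoters of Mip and Gja1, which had the largest and the smallest fall, are shown because both hold a core motif of Maf, a family of transcription factors known for its role in fiber cells. Promoter sequences are from RefSeq on GRCm38.p6, 250 bases before to 50 bases from the start site on, and all 5 analysed genes matched (Gja3 with 2 windows). That build differs from GRCm39, named for the count files. Capitals mark matches to TGCTGA (the Maf core, TCAGCA on the other strand) and to TGANTCA (AP-1). The Mip window is chr10:128225560-128225859 and the Gja1 window chr10:56377050-56377349, both on the plus strand.
Mip: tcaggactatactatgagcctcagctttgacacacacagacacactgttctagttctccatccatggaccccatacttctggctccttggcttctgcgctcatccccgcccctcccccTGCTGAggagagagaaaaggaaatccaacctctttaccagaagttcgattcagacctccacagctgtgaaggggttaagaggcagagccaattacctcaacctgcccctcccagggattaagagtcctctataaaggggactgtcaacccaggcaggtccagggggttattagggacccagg
Gja1: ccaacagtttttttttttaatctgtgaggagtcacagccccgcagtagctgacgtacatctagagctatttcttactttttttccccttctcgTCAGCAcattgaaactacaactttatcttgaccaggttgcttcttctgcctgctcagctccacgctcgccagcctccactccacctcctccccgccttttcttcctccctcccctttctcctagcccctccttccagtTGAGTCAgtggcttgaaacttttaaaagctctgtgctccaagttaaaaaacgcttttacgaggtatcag

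The Maf core lies at -132 to -127 from the start site in Mip and at -157 to -152 in Gja1. Gja1 also has 1 AP-1 match, at -19 to -13. In the table of 32851 promoter windows of the same length, 19.5% hold the Maf core and 7.81% the AP-1 motif. The windows of Gja3, Aqp1 and Aqp5 held neither, and none of the 5 genes held the heat shock element core GAANNTTC, which 7.86% of all windows hold. A match describes letters in a window and no binding was measured.

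For each gene, the 3 genes with the most similar pattern were taken from 9308 genes of at least 10 CPM, by the root mean square (RMS) difference of log2 CPM centred on each gene's own mean over the 6 libraries. For Mip these were Cryba1 (RMS 0.18), Sema5b, a semaphorin gene (0.25), and Lctl, a gene of the klotho family (0.29). For Gja3 they were Erich5 (0.10), the folate receptor gene Folr1 (0.12) and the glutamate receptor gene Grm4 (0.13). The nearest to Gja1 were Naa80 (0.05), Pdhb (0.06) and Eif3h (0.06), and the nearest to Aqp1 were Chrac1 (0.05), Mrpl23 (0.06) and Gm10123 (0.08). For Aqp5 they were Pigv (0.08), Ablim1 (0.09) and Pstpip2 (0.11). The pattern is dominated by the difference between times, so these distances describe 6 libraries only.

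Connexin RNA summed over the family was lower at 72 h, while single other connexin and pannexin genes went in both directions. All connexins together, Gja1 and Gja3 included, went from 736 ± 22.7 to 392 ± 62.6 CPM per kb (SD, n = 3). The groups did not overlap (exact two-sided permutation p = 0.1, the smallest possible). Of 21 other connexin and pannexin genes 9 were tested, 6 rose and 3 fell, with a median log2 change of 3.39. Over all tested genes 21.0% were called higher and 17.5% lower. Of the 6 that rose, 5 met the count minimum only at 72 h and so could only rise, among them Gjb2, Gjb5 and Panx1. Of the 3 that fell, 2 (Gjd2 and Panx2) met it only at 0 h and so could only fall.

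Beta connexins are typical of skin and other surface epithelia. Gjb5 went from 0 counts to 105, with the 72 h level at least 49.5-fold higher (edgeR adjusted p = 7.6e-04), with the floor of 3 counts over the group. Gjb2 went from 2 counts to 154, which is a 109-fold ratio (29.7 to 908, 95% counting interval; edgeR adjusted p = 0.0035), and 121 of the 154 lay in 72 h replicate 3. Without that library the ratio was 34.4 (8.80 to 296), and without 0 h replicate 3 the 72 h level was at least 47.1-fold higher. The 9 ocular surface epithelial markers summed to 850 to 1230 CPM at 0 h and to 171, 454 and 5429 CPM in 72 h replicates 1 to 3, with 1 of 7 tested members called, lower (Aldh3a1). Aldh3a1 dominated the 0 h sums at 999 ± 192 CPM, and the next mean at 0 h was Krt19 at 49.5 ± 2.76 CPM. It also had the most counts of the 9 in 72 h replicates 1 and 2, 1327 and 2763. The part of surface epithelial cells in the rise of Gjb2 was not tested.

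Among other family members, the gamma connexin gene Gjc1 rose by 1.63 ± 0.39 on the log2 scale (edgeR adjusted p = 0.0083), from 4.35 ± 0.296 to 13.5 ± 6.56 CPM. Panx1, a pannexin channel gene linked to ATP release, rose from 0.333 ± 0.0159 to 3.61 ± 1.76 CPM (edgeR adjusted p = 0.0047). Gjc1 met the count minimum in both groups and Panx1 only at 72 h. Panx2 and Gjd2, given next, met it only at 0 h. Panx2 fell from 5.70 ± 2.00 to 0.579 ± 0.810 CPM (edgeR adjusted p = 0.0196). That call was lost without 0 h replicate 1 (0.0767), 0 h replicate 3 (0.0813) or 72 h replicate 2 (0.0593), and without 72 h replicate 1 the fall was 44.1-fold instead of 9.59-fold. Gjd2, a neuronal and retinal connexin gene, dropped from 78 counts to 2, which is a 27.6-fold ratio (7.38 to 232, 95% counting interval). Its edgeR adjusted p was 0.0091, and 0.0578 without 0 h replicate 2, and the fall was at least 12.5-fold without 72 h replicate 3. The 10 photoreceptor markers, of which 9 were called lower, summed to 748 to 1845 CPM at 0 h and 67.3 to 184 CPM at 72 h, and their part in the fall of Gjd2 was not tested. Of all tested genes 17.5% were called lower, and Nrl, among the 9, met the count minimum only at 0 h. Gje1 and Gja4 did not pass the count minimum, with 38 and 5 counts at 0 h and 0 and 48 at 72 h.

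**Figure D4:**
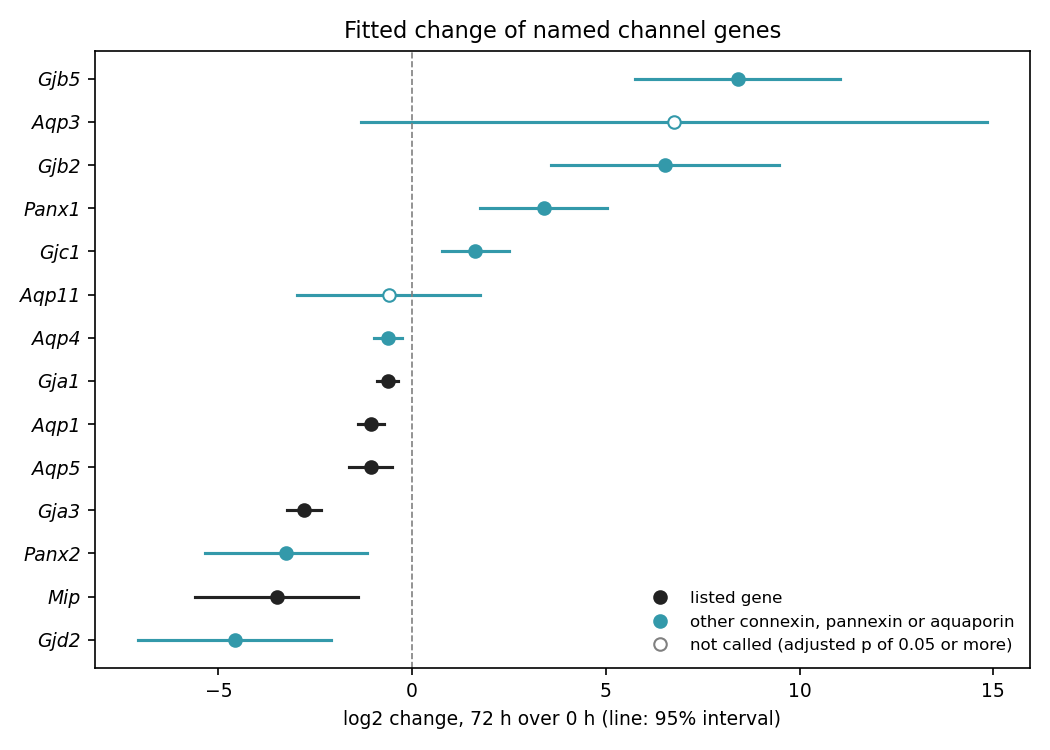
Fitted log2 change of the 5 listed genes (black) and of the other tested connexins, pannexins and aquaporins named in the text (teal), with 95% intervals; open circles were not called. Every black point is below 0, while Gjb5, Gjb2, Panx1 and Gjc1 lie above 0; fitted changes of genes near 0 counts depend on the prior count.

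Of 9 other aquaporin genes 3 were tested, and 1 fell and none rose, where 17.5% of all tested genes were called lower and 21.0% higher. Aqp4, a water channel gene known from glia and ciliary epithelium, went from 128 ± 11.9 to 82.9 ± 18.0 CPM, a log2 change of -0.63 ± 0.16 (edgeR adjusted p = 0.011, and 0.0566 without 0 h replicate 3). Aqp3, a channel for water and glycerol in surface epithelia, was not called (edgeR adjusted p = 0.156). It was at 0.0789 to 1.90 CPM at 0 h and at 0, 6.58 and 244 CPM at 72 h, and both its highest value and those of Krt5, Krt15 and Krt13 lay in 72 h replicate 3. Aqp11, an intracellular aquaporin, was at 2.84 ± 1.58 and 1.85 ± 1.97 CPM (edgeR adjusted p = 0.684). Aqp9, at 1 count at 0 h and 29 at 72 h, was below the count minimum.

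Relatives of Lim2 in the family of small tetraspan membrane proteins were given by a list of 5, all tested, of which 1 rose and 1 fell (median log2 change 0.83). These numbers are near the shares over all tested genes, 21.0% higher and 17.5% lower. Emp3 rose from 0.643 ± 0.358 to 18.6 ± 6.89 CPM (edgeR adjusted p = 5.5e-05). With 12, 4 and 7 counts in 0 h replicates 1 to 3, Emp3 met the count minimum only at 72 h and so could only rise. Pmp22, best known as a myelin protein gene, fell from 302 ± 7.97 to 97.8 ± 44.2 CPM (edgeR adjusted p = 0.0173), a call lost without any one of the 0 h libraries (0.0525 to 0.0570) and without 72 h replicate 1 (0.0568). With no count filter the Pmp22 log2 change was not called either (edgeR adjusted p = 0.0714). Emp1 was at 1.52 to 7.65 CPM at 0 h and 66.6, 85.0 and 1059 CPM at 72 h (edgeR adjusted p = 0.0501, not called). Without 72 h replicate 3, the library with the high keratins, Emp1 was called higher (0.0076) and Emp2 lower (0.0046).

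Of 20 genes for partners and regulators of the channels, 18 were tested, 4 rose and 7 fell (median log2 change -0.32). The shares over all tested genes were 21.0% higher and 17.5% lower, so the number that rose is near the general share. Bfsp1 and Bfsp2, whose filament proteins bind AQP0, fell by 5.13 ± 0.16 and fell by 2.88 ± 0.16 on the log2 scale (edgeR adjusted p = 2.9e-08 and 1.1e-06). The largest fall in this list was that of Bfsp1, which is also a fiber marker. Src, a kinase that acts on Cx43, rose by 0.99 ± 0.10 (edgeR adjusted p = 4.7e-05). Tjp1, which encodes the scaffold ZO1 that binds connexins, was also among the 7 that fell.

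Of 17 genes for ion and solute transport in the lens, 15 were tested, 3 rose and 6 fell (median log2 change -0.48). Among all tested genes 21.0% were higher and 17.5% lower, so the number that rose is near the general share. The sodium pump subunit gene Atp1b1 fell by 3.09 ± 0.18 (edgeR adjusted p = 1.2e-06), and Trpv4, a channel that responds to swelling, fell by 1.87 ± 0.18 (edgeR adjusted p = 3.9e-05). Slc12a4, a potassium chloride cotransporter gene, rose by 1.19 ± 0.12 (edgeR adjusted p = 5.6e-05). In the same 72 h libraries 10 of 12 macrophage markers were called higher, with sums of 30.9 to 46.5 CPM at 0 h and 218 to 396 CPM at 72 h. Over all tested genes 21.0% were called higher. Some of these markers, such as Itgam with 5, 3 and 0 counts at 0 h, met the count minimum only at 72 h and so could only rise. Neutrophil markers summed to 0.931 to 2.45 CPM and 24.4 to 165 CPM, with 2 of 3 tested members higher. These were Cxcr2, with 0 counts in every 0 h library, and Csf3r, with 12, 10 and 17 counts there. Both met the count minimum in all libraries of a group only at 72 h and so could only rise. The third, Ltf, was not called and had 31, 32 and 1107 counts in 72 h replicates 1 to 3. Ly6g, Mpo, Elane and Ngp had 0 counts in every library. Corneal endothelial markers summed to 18.6 to 26.3 CPM and 29.8 to 59.5 CPM, with 1 of 3 higher and 1 lower. Fibroblast markers summed to 185 to 197 CPM and 88.7 to 140.2 CPM, with 2 of 3 tested members higher (Dcn and Lum) and 1 lower. Dcn had 5, 21 and 8 counts at 0 h and Lum 0, 0 and 1. Dcn and Lum thus met the count minimum only at 72 h and could only rise. The lower one, Pdgfrb, went from 191 ± 6.69 to 95.4 ± 13.7 CPM and dominated the sum. The part of these cells in the changes of the lists was not tested.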

How the data were processed

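For 6 libraries made with a stranded kit, the authors deposited unnormalised read counts per gene. The submitters' processing notes name GRCm39 and the tools HISAT2, HTSeq and edgeR, without roles or versions; the sources used here give neither the annotation nor whether counting used strand. Strand matters for Mip, which a noncoding gene overlaps on the opposite strand in the annotation used. The 5 closing lines of reads assigned to no gene (41.9% to 51.7% of reads) were left out. Symbols and transcript lengths came from GENCODE M21 (GRCm38) by identifier.

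Genes were filtered with filterByExpr (minimum count 10, total 15), normalised by TMM and fitted across all genes with time as the only term in edgeR 4.0.16 (robust quasi-likelihood test in R 4.3.3), and two-sided p-values were adjusted after Benjamini and Hochberg. Fold changes use a prior count of 0.125, and standard errors come from the fold change and its F statistic. Ratios and shares within libraries were compared by exact two-sided permutation tests, of which 15 were computed (adjusted p 0.107 where p is 0.1) beside the 10 gene pairs (pseudocount 0.5). Counting intervals and floors cover counting error only. Alternatives were RLE, upper quartile or no composition factor, other filters, crystallin and mitochondrial genes left out, a replicate block, DESeq2 1.42.0, limma voom 3.58.1 and leaving out each library.

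Genes and lists were chosen with earlier results of these data known. Named are the 5 matched genes, connexins, pannexins and aquaporins of at least 1 CPM in a group, the 2 called members with the smallest p in each direction of other lists, and the 3 nearest patterns. Slc2a1, Cryba1, Lgsn, Emp1, Emp2, Tjp1 and the markers were added after their values were seen. Some genes this rule names are not reported here. No protein sequences were used.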

Additional observations from a re-analysis of the deposited data

How the results depend on the processing

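Gja1, Gja3, Aqp1 and Aqp5 kept their direction and their call under all 15 alternatives, with ranges of log2 change of -0.73 to -0.56, -3.03 to -2.61, -1.26 to -0.97 and -1.39 to -0.85. Mip kept its direction in all 15 and its call in 10. Leaving out one library gave -4.43 to -3.08 for Mip, and its adjusted p was 5.1e-06 to 0.0933 over all alternatives. Between libraries of the same replicate number, deviations from the group mean correlated at -0.04, 0.06 and -0.01. With 3 libraries a group these values cannot show whether equal numbers share mice, which the labels do not say. With the replicate block the Mip log2 change was -3.85 and not called (adjusted p = 0.0682); the cause was not tested. Not every library correlated best with its own number. With the block the number of genes higher at 72 h was 2921 and of genes lower at 72 h 2507, against 3230 and 2700 without it. Of 748 values of 50 other connexin, aquaporin and list genes, 704 kept their call and direction, 15 lost a call, 28 gained one and 1 reversed: the Slc2a1 log2 change, not called with all libraries (0.0013), was called lower without 72 h replicate 3 (-0.28) and ranged from -0.28 to 0.20 when a library was left out; the cause was not tested. The ratio of Gja3 to Gja1 moved by -2.33 to -2.07 and the Mip share by -63.0 to -40.5 percentage points when a library was left out. The length of all exons was chosen after seeing the data. Genes with few counts in a group, such as Gjb2, Gjb5 and Gjd2, are limited by depth.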
